A study of Mus musculus with 4 samples.

Results

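The cells described here are NIH/3T3 cells in which none of 7 neighbouring genes of chromosome 14 gave a single UMI, and they were selected on exactly those counts. The genes are Dnajc3, Gpc6 and Uggt2, which gave most of the counts elsewhere in the line, and Abcc4, Tgds, Gpr180 and Dzip1. Of 768 NIH/3T3 barcodes that reached 6000 UMIs with no more than 20% of them mitochondrial, 327 had 0 UMIs over the 7 genes (42.6%, exact 95% binomial interval 39.1 to 46.2). They were set against the 310 cells of the same matrix with at least 2 such UMIs (40.4%, 36.9 to 43.9), while the remaining 131 cells had 1 UMI (17.1%, 14.5 to 19.9). Under the same filter the 3 cell lines of the experiment gave 2744 cells in all, with 1193 N2a cells and 783 mESCs, and 0 barcodes were shared between lines.

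The experiment used CapSeq, a combinatorial barcoding method for single cells, on Neuro-2a (N2a) neuroblastoma cells, NIH/3T3 fibroblasts and E14TG2a embryonic stem cells (mESCs). NIH/3T3 cells, an immortalised line from mouse embryos obtained from ATCC, were grown untreated in DMEM with 10% FBS and received their first barcode (BC1) in columns 5 to 8 of the plate. The NIH/3T3 matrix held 13505027 UMIs over 33565 genes, of which 3118923 lay in the 327 cells and 3075850 in the 310 comparison cells. All of them came from 1 library, so there was no replicate, no test was made, and every interval covers counting error alone.

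The 7 genes lie in 1 stretch near the end of chromosome 14 and have several tasks. Dnajc3 is a co-chaperone of the ER chaperone BiP that also restrains the stress kinase PERK, and Uggt2 belongs to the family of glucosyltransferases that recognise misfolded glycoproteins. Gpc6 is a glypican, a cell surface heparan sulfate proteoglycan, Abcc4 exports cyclic nucleotides and other organic anions, and Dzip1 serves in assembly of the primary cilium, where hedgehog signals are received. Fibroblasts such as NIH/3T3 secrete and remodel collagen matrix, and immortalised lines carry rearranged chromosomes with abnormal copy numbers.

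On GRCm39 the block ran from the start of Gpc6 to the end of Uggt2, chr14:117162727-119337272, over 2175 kb. In the comparison cells, Dnajc3 (chr14:119175317-119219115) stood at 107 CPM (UMIs scaled to 1e6 per group; exact Poisson 95% interval 96.0 to 120), Gpc6 at 80.0 CPM and Uggt2 at 72.8 CPM. Abcc4 stood there at 30.9 CPM, Tgds at 16.9 CPM, Gpr180 at 16.6 CPM and Dzip1 at 15.3 CPM. Both groups were chosen by these values, so the contrast in them is a description and supports nothing. Gpc6 reached 1262 CPM in N2a cells and Abcc4 281 CPM in mESCs, so the block was read in all 3 lines. In the NIH/3T3 comparison the 13 other annotated genes inside the block added nearly nothing, with 5 UMIs in comparison cells (Gm9376, Gm49179 and Gm49768) and 0 in cells without block UMIs.

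Cell numbers tapered off above 1 UMI and piled up at 0. Just outside the rule stood the 131 cells with 1 UMI, and 125 cells had 2, 75 had 3, 48 had 4, 32 had 5, and the others had up to 15. A Poisson rate fitted to the comparison cells, 267 CPM, predicted 49.5 further cells at 0 and 102 at 1. The predicted cells at 0 amount to 15.1% of those selected. Both the rate and the 327 cells come from the counts of the rule itself, so these values describe the choice of cells and support nothing. A cell without block UMIs need not be a cell without block RNA, and the group is called here by its rule.

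**Figure D1:**
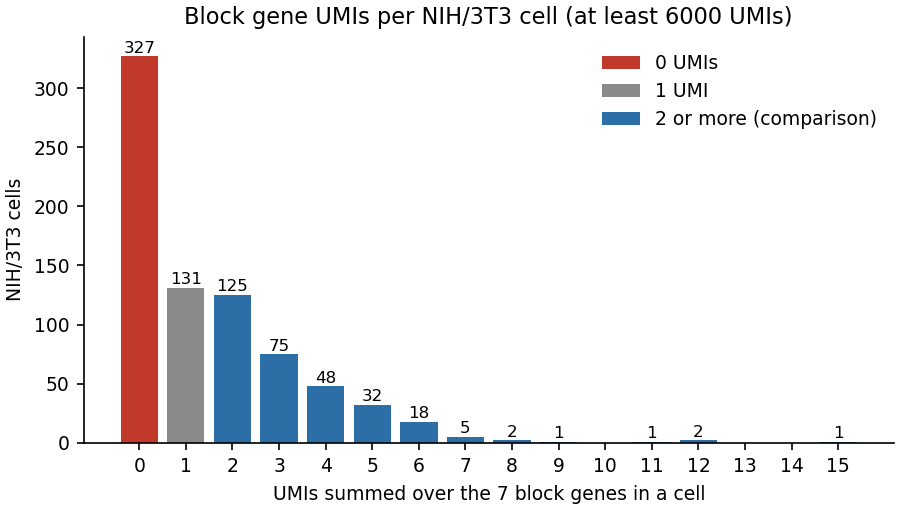
Number of NIH/3T3 cells (y axis) by UMIs summed over the 7 block genes in the cell (x axis), with bars counting cells and colours marking the groups. The bar at 0 holds 327 cells and stands apart from the 131 cells at 1 and the 125 cells at 2.

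Depth was similar in the groups. Cells without block UMIs had a median of 8287 UMIs (6006 to 24768), against 8780.5 (6021 to 26868) in comparison cells. The share of cells without block UMIs was 45.2% of 332 cells between 6000 and 8000 UMIs, 41.4% of 169 cells between 8000 and 10000, 37.5% of 144 cells between 10000 and 13000, and 43.1% of 123 deeper cells. These shares come from the counts of the rule and are a description. Genes detected per cell, after thinning each cell to 6000 UMIs, had a median of 3116 (2498 to 3441) without block UMIs and 3095.5 (2632 to 3316) in comparison cells, and before thinning 3782 and 3850. Mitochondrial RNA differed more, with a median of 2.92% of UMIs (0.141 to 13.6) against 2.06% (0.796 to 6.95), and the ranges overlapped.

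The cells came from the whole NIH/3T3 section of the plate. All 32 BC1 oligonucleotides of NIH/3T3 included cells without block UMIs, at shares from 25% to 61.9% with a median of 43.4%, on 10 to 43 cells each. The lowest and the highest share are shown by the BC1 sequences that tagged those cells, with the barcode in capitals since the whole sequence identifies the well:
BC1 with the lowest share, 4 of 16 cells: GTTCCAGT
BC1 with the highest share, 13 of 21 cells: GCCTATCC

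The label of an NIH/3T3 fibroblast held for the group. The 12 fibroblast markers summed to 6135 CPM without block UMIs and 6499 CPM in comparison cells, against 593 CPM in N2a cells and 755 CPM in mESCs, and all 12 were detected. Vimentin (Vim), the intermediate filament of mesenchymal cells, stood at 2017 CPM against 1799 CPM and was detected in every one of the 327 cells. Of the 10 markers with at least 30 CPM, 0 were at least 1.5-fold higher and 2, Col5a2 and Col6a1, at least 1.5-fold lower, where over all 6344 genes tested 7.2% were higher and 6.46% lower by that fold. Below that floor Thy1, a surface glycoprotein of many fibroblasts, stood at 13.5 CPM (42 UMIs) against 0.650 CPM (2 UMIs), and the receptor Pdgfrb at 9.94 CPM against 34.8 CPM.

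Markers of the other lines were near the floor. The 12 N2a markers summed to 5.13 CPM against 11.1 CPM in comparison cells and 1768 CPM in N2a cells, 6 of them had 0 UMIs, and Hand2, a transcription factor of the sympathetic lineage, had 1 UMI. The 12 mESC markers summed to 37.5 CPM against 13.7 CPM in comparison cells and 6526 CPM in mESCs, and Fgf4 was the 1 marker at 0 UMIs. Most of that sum was Dppa4 at 14.4 CPM (45 UMIs) against 0.325 CPM (1 UMI), and Dppa5a at 14.1 CPM (44 UMIs) against 8.78 CPM (27 UMIs). Dppa4 is a chromatin protein of pluripotent cells, and Pou5f1 and Nanog, which define that state, had 1 and 2 UMIs in the cells without block UMIs. What part RNA from the other lines had in the sum was not tested.

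Leaving each block gene out of the rule in turn gave its level in cells it had not chosen. Cells at 0 for the other 6 genes held Dnajc3 at 27.2 CPM (103 UMIs), against 79.4 CPM in cells with at least 2 UMIs of the other 6, which is 34.3% (26.7 to 43.9). For Gpc6 the remaining level was 26.1% (18.4 to 36.4), for Uggt2 23.3% (15.9 to 33.4) and for Abcc4 30.8% (17.7 to 51.5). The low genes gave 25% for Gpr180, 19.5% for Tgds and 13.4% for Dzip1 on 10, 7 and 5 UMIs, with correspondingly wide intervals. Each gene was lower where the other 6 gave 0 UMIs, and every one of the 7 still gave UMIs there. All 7 genes were chosen with earlier results of these data known, so these levels are a description and support nothing.

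Beyond the block, the lower level carried on to the end of the chromosome. Of the nearest genes, Tpm3-rs7 before the block had 17 against 22 UMIs and Hs6st3 just after it 4 against 8, too few to compare. All 8 genes between the block and the chromosome end with at least 30 CPM were at least 1.5-fold lower, Mbnl2, Ipo5, Dock9, Ubac2, Tm9sf2, Clybl, Pcca and Itgbl1, and together they stood at 0.511 of the comparison level (0.483 to 0.541; 1867 against 3603 UMIs). Against that, 6.46% of all genes tested were lower by this fold, with a median log2 ratio near 0. Rap2a, below that floor, was the exception among the near neighbours at 22.8 CPM against 18.5 CPM, a ratio of 1.23 (0.855 to 1.77).

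Levels in this distal stretch showed by how much. Itgbl1, an integrin-like secreted protein at chr14:123897383-124215765, stood at 139 CPM against 381 CPM, 2.75-fold lower, and was detected in 47.4% against 88.4% of cells. Ipo5, a nuclear import receptor at chr14:121147750-121189195, stood at 97.5 CPM against 182 CPM, 1.87-fold lower. Mbnl2, a splicing regulator at chr14:120512932-120669110, stood at 163 CPM against 249 CPM, 1.53-fold lower and the nearest of the 8 to the fold boundary. All 8 genes of the stretch were still detected in the cells without block UMIs.

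Before the block, the 15 genes nearest to it past the floor stood together at 0.772 of the comparison level (0.741 to 0.805), with single genes on both sides. Their median log2 ratio was -0.15. Of their summed 4074 against 5204 UMIs, Diaph3 alone gave 634 against 1539. Of the 15 genes past the floor on that side, Lmo7 was 2.40-fold higher (152 against 63.4 CPM), while Diaph3, a formin of the actin cytoskeleton, was 2.46-fold lower (203 against 500 CPM), the exosome nuclease Dis3 1.93-fold lower and Pibf1 2.17-fold lower. The other 11 differed by less than 1.5-fold. All 188 genes before the block, these 15 included, stood at 0.984 of the comparison level, with 18 higher and 19 lower by 1.5-fold. Another low stretch of 20 genes lay there, chr14:62913779-71004113 (Ints6 to Xpo7), with a median log2 ratio of -0.55 and 9 genes lower. Over all 196 genes of the chromosome, 13.8% were lower and 9.18% higher.

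**Figure D2:**
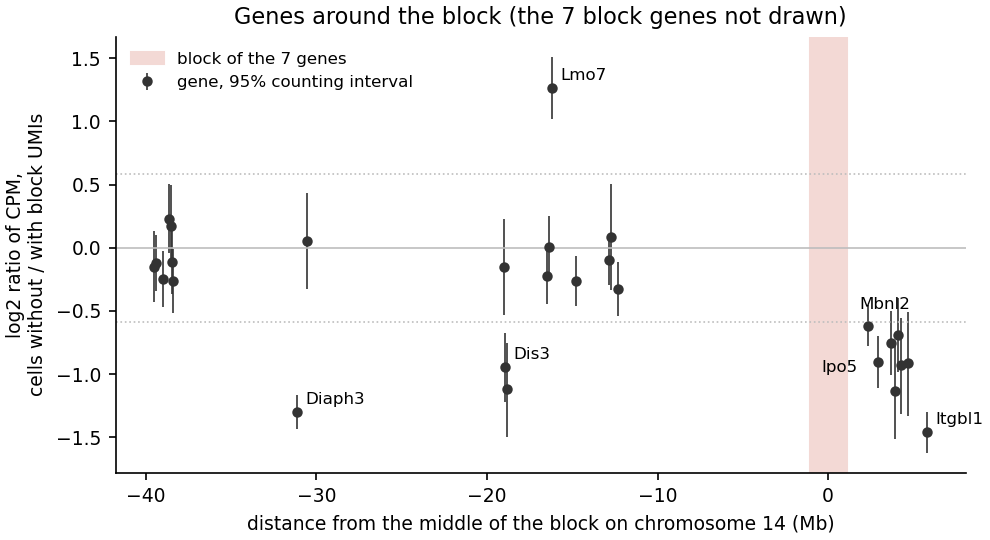
Log2 ratio of CPM in cells with 0 over cells with at least 2 block UMIs (y axis) for genes past 30 CPM, by distance in Mb from the middle of the block (x axis), with 95% counting intervals and dotted lines at 1.5-fold. All 8 genes to the right of the block lie at or under the lower line, and before it Lmo7 lies high and Diaph3 and Dis3 low.

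Away from the block, 457 of the 6344 genes with a mean of at least 30 CPM were at least 1.5-fold higher in cells without block UMIs (7.2%), and 410 were at least 1.5-fold lower. At least 4-fold differences numbered 54 higher and 19 lower, and at least 10-fold differences 26 higher and 0 lower. The lower counts depended on depth. Among cells of at least 10000 UMIs 62 genes were 4-fold higher and 31 lower, and 30 were 10-fold higher and 9 lower. Among cells of at least 4000 UMIs 45 were 4-fold higher and 5 lower, and 24 were 10-fold higher and 0 lower. Because these are ratios of summed UMIs with no replicate, a count of genes past a fold is a description of this library. After thinning to equal depth, 76 of the 327 cells without block UMIs (23.2%) had at least 3 UMIs of the 12 lowest genes. Of the 310 comparison cells, 302 did (97.4%). The part of these 76 cells, or of a floor set on the mean of both groups, in the uneven counts was not tested.

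The genes with the largest upward ratios were nearly silent in comparison cells. Nlgn1, the postsynaptic adhesion protein neuroligin 1, stood at 574 CPM against 19.2 CPM, 29.9-fold higher (23.1 to 39.5), and was detected in 71.6% against 5.48% of cells, with 9.29 CPM in N2a cells and 6.61 CPM in mESCs. Grb14, an adaptor that dampens insulin receptor signalling, stood at 131 CPM against 2.28 CPM on 408 against 7 UMIs, 57.5-fold higher (27.6 to 144). The protocadherin Pcdh7 was 50.7-fold higher on 257 against 5 UMIs. These ratios rest on few comparison UMIs, and over 22 alternatives that of Grb14 ran from 18.7 to 69.3, that of Pcdh7 from 13.2 to 112 and that of Nlgn1 from 14.2 to 55.5.

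Stra6, the membrane receptor that takes up retinol from its plasma carrier, was also among the 12 genes with the highest ratios. It stood at 138 CPM against 4.23 CPM, 32.7-fold higher (18.9 to 61.9), and was detected in 56.6% of cells without block UMIs and 2.90% of comparison cells, and over the 22 alternatives its ratio ran from 10.7 to 70.9.

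Further genes of that group of 12 were the C-type lectin Cd209c (39.2-fold), the long noncoding RNAs Gm45589 (34.1-fold) and 4933436I20Rik (24.3-fold), the integrin subunit Itgb7 (30.4-fold), the zinc finger gene Zfp982 (28.2-fold), the copine Cpne8 (26.0-fold) and the peptidase Naalad2 (23.3-fold). Cd209c and Zfp982 belong to families of near-identical copies among which reads can be split, so their values are uncertain. Zfp982 was also high in mESCs at 141 CPM and Gm45589 in N2a cells at 121 CPM, whereas Itgb7, Cd209c and Cpne8 stayed under 3 CPM in both other lines. Over the alternatives the ratio of Cd209c was 14.1 or more, that of Gm45589 13.9, of Itgb7 13.3, of Cpne8 11.4, of Naalad2 10.2, of Zfp982 10.0 and of 4933436I20Rik 8.97 or more.

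Among the 12 genes with the lowest ratios, receptors of Wnt5a stood first. Ror1 stood at 19.2 CPM against 148 CPM, 7.67-fold lower (5.85 to 10.2), and was detected in 9.17% against 64.2% of cells. Ror2, its closest relative, stood at 11.5 CPM against 77.7 CPM, 6.73-fold lower (4.73 to 9.84). Both are receptor tyrosine kinase-like proteins of noncanonical Wnt signalling, with 60 and 36 UMIs in the 327 cells.

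The other genes of these 12 have varied roles. Slit2, the secreted ligand of Robo receptors, stood at 13.1 CPM against 81.3 CPM (6.18-fold lower), and the adhesion molecule Alcam at 8.66 CPM against 51.7 CPM (5.97-fold lower). Zfpm2, a cofactor of GATA factors, stood at 103 CPM against 552 CPM, 5.38-fold lower (4.77 to 6.09), and was found in 22.9% of cells without block UMIs and 94.5% of comparison cells. Hdac9, a class IIa histone deacetylase, stood at 40.1 CPM against 218 CPM, 5.44-fold lower. Nhsl1, Macrod2, the actin regulator Enah, Fgfbp1, Lrrtm4 and Asrgl1 completed the 12, between 5.17-fold and 6.01-fold lower. For each of these 12 genes the cells with 1 block UMI lay between the groups, as for Ror1 at 88.2 CPM and Zfpm2 at 406 CPM. Most of these folds were larger at greater depth, with Enah nearly the same (5.75-fold at 10000 UMIs). In cells of at least 10000 UMIs Hdac9 was 23.4-fold lower, Lrrtm4 21.5-fold, Ror1 14.1-fold, Zfpm2 12.9-fold, Slit2 12.8-fold and Ror2 11.2-fold lower. In cells of at least 4000 UMIs each of the 12 folds was smaller, from 3.38-fold lower for Macrod2 to 5.13-fold lower for Ror1. The ratio to comparison cells over the 22 alternatives was at most 0.210 for Ror1, 0.231 for Ror2, 0.280 for Zfpm2 and 0.266 for Hdac9.

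**Figure D3:**
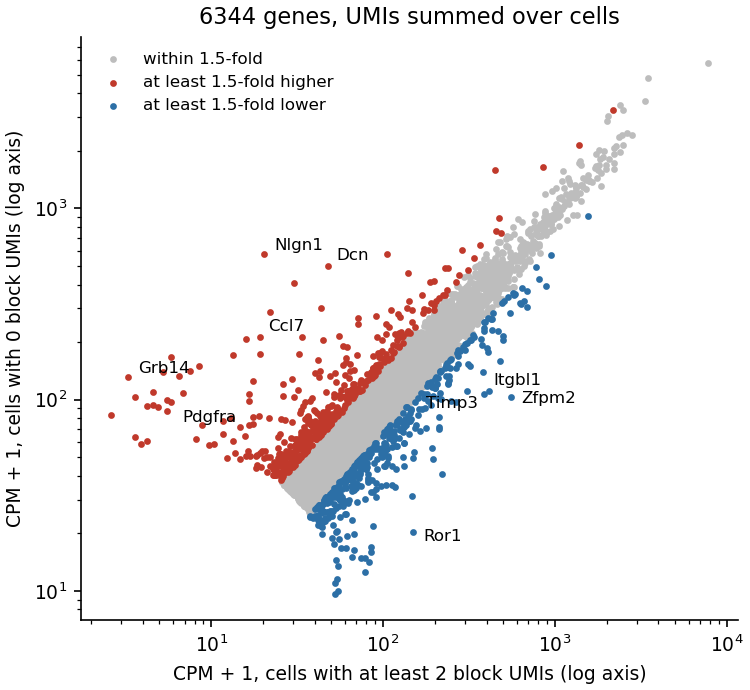
CPM + 1 in cells with 0 block UMIs (y axis, log) against cells with at least 2 (x axis, log), 1 point for each of 6344 genes, coloured by the 1.5-fold boundary. Nlgn1, Dcn, Ccl7 and Grb14 lie far above the diagonal, and Ror1, Timp3 and Zfpm2 far below it.

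Single cells showed that the group was not uniform. After thinning each cell to 6000 UMIs, 255 of the 327 cells without block UMIs had at least 3 UMIs of the 12 highest genes (78.0%), with a median of 11 UMIs, and 76 had at least 3 UMIs of the 12 lowest genes (23.2%). Of the 310 comparison cells, 8 had at least 3 UMIs of the highest genes (2.58%) and 302 of the lowest (97.4%). Only 5 cells without block UMIs carried both at that level and 1 carried neither. Both were also carried by 7 comparison cells, out of the 8 with the highest genes, and by 5 cells with 1 block UMI. The 2 patterns thus met in few cells of any group, and doublets were not called. Cells with 1 block UMI lay between the groups, nearer to comparison cells, with 17 of 131 (13.0%) and 115 of 131 (87.8%). The 24 genes were picked on these same cells, so the separation from comparison cells is a description, and the part of the 76 cells in the other differences was not tested.

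**Figure D4:**
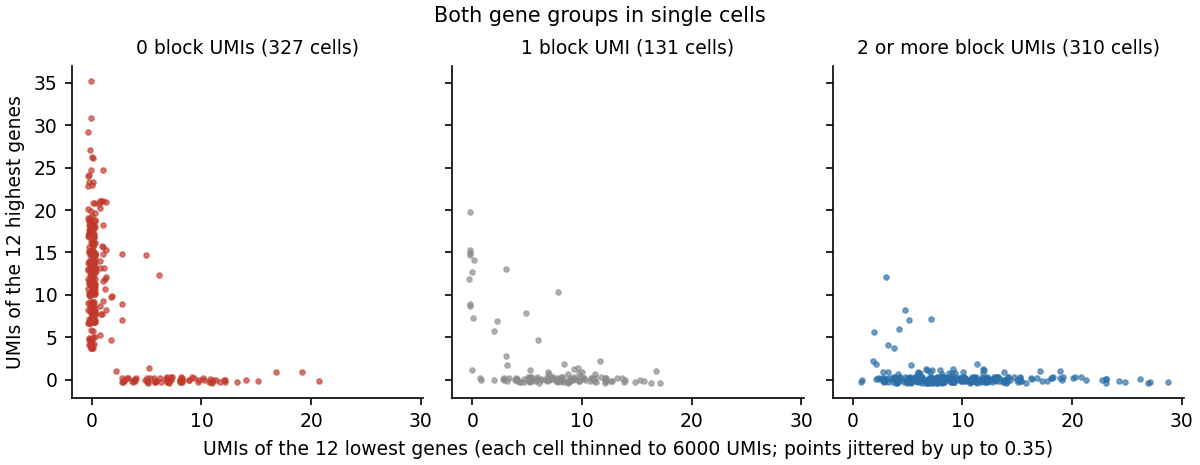
UMIs of the 12 highest genes (y axis) against UMIs of the 12 lowest genes (x axis) in each cell thinned to 6000 UMIs, 1 point per cell, in panels for 0, 1 and at least 2 block UMIs. In the first panel most points lie along the y axis and 76 cells have at least 3 UMIs on the x axis, where nearly all comparison cells lie.

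Shallower cells, which the rule had not used, were then picked by the 12 highest and 12 lowest genes, and the block was read in them. Among 1007 NIH/3T3 cells of at least 2000 and under 6000 UMIs, 252 had at least 3 UMIs of the 12 highest genes and more of these than of the 12 lowest, and 591 the reverse, with median depths of 3935 and 4040 UMIs. The 7 block genes together gave 9 UMIs in the former, 8.85 CPM (4.05 to 16.8), and 627 UMIs in the latter, 264 CPM (243 to 285), which is 3.36% (1.53 to 6.41). Dnajc3 had 1 against 205 UMIs, Uggt2 1 against 136, Gpc6 4 against 155 and Abcc4 1 against 54. The block genes were therefore close to absent, though not at 0, in cells selected without them, and the genes after the block stood at 39.4% (35.6 to 43.5). These cells came from the same library and are no replicate.

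In these shallower cells more genes lay past 1.5-fold, 779 higher (12.3% of 6322) and 679 lower (10.7%). Their groups held fewer UMIs than those of the rule, and their cells were picked at opposite ends of the 24 genes. The part of either in the larger counts was not tested. With the 24 genes that chose the shallower cells left out, 6158 genes were past the floor in both sets, and 367 were higher in both, 83.6% of the 439 in the deeper cells and 50.9% of the 721 in the shallower ones. For lower genes the overlap was 329, 85.5% of 385 and 48.8% of 674. Past the fold in opposite directions were 0 genes. Both contrasts come from 1 library and their cells were chosen on linked patterns, so the overlap is a description.

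Several secreted factors stood far apart between the groups. Of 16 listed growth factors and cytokines past the floor, 5 were at least 1.5-fold higher and 1 lower, with a median log2 ratio of 0.14 (over all genes, 7.2% were higher and 6.46% lower, which is the background for each list). Ccl7 and Ccl2, neighbouring chemokine genes of chromosome 11 that attract monocytes, stood at 211 CPM against 18.2 CPM (11.6-fold, 8.81 to 15.5) and 124 CPM against 16.6 CPM (7.50-fold, 5.59 to 10.3). In the shallower cells they were 31.5-fold and 16.5-fold higher. Tgfb3, a TGF-beta ligand, was 2.49-fold higher, and the proliferin genes Prl2c3 and Prl2c2 21.6-fold and 7.11-fold higher. Reads can be split between these near-identical copies, so their values are uncertain. Over the alternatives the ratio of Prl2c3 was 10.8 or more and that of Prl2c2 ran from 5.17 to 15.1. In the shallower cells Prl2c3 had 121 against 0 UMIs. Pdgfc, a ligand of PDGF receptors, was 2.02-fold lower, and Kitl, which had the most UMIs of the list, stood at a ratio of 1.39.

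Receptors for growth factors differed in both directions. Of 19 past the floor, 5 were higher and 4 lower, with a median log2 ratio of -0.01. Pdgfra, a receptor of platelet-derived growth factors, stood at 97.8 CPM against 15.6 CPM, 6.27-fold higher (4.61 to 8.68), and was found in 49.5% against 13.5% of cells. Il1rl1, the receptor of interleukin 33 and the gene of the list with the most UMIs, stood at 894 CPM against 473 CPM, 1.89-fold higher. Tgfbr3 (2.13-fold), Fgfr1 (1.90-fold) and the collagen receptor Ddr2 (1.54-fold) were also higher, whereas Tgfbr1 and Bmpr1a, type I receptors of the TGF-beta family, were 1.67-fold and 1.54-fold lower, beside Ror1 and Ror2. Of these, Ddr2 came inside 1.5-fold in 6 of 23 alternatives, Bmpr1a in 4 and Tgfbr1 in 1. With Pdgfra higher and Pdgfrb, below the floor, lower, the 2 PDGF receptors stood in opposite directions.

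Matrix genes had no common direction. Of 23 collagens and matrix proteins past the floor, 4 were higher and 6 lower, with a median log2 ratio of -0.22, and their summed level was 0.960 of that in comparison cells (0.938 to 0.982). Decorin (Dcn), a small proteoglycan that binds collagen fibrils, stood at 497 CPM against 47.1 CPM, 10.5-fold higher (8.89 to 12.6), and was found in 77.1% against 18.1% of cells. In the shallower cells it was 20.8-fold higher (16.0 to 27.4). Col1a1, the main chain of type I collagen, was 3.32-fold higher (49.7 against 15.0 CPM), while its partner Col1a2 stood at a ratio of 0.857. Osteopontin (Spp1) was 1.75-fold and the collagen lysyl hydroxylase Plod2 1.68-fold higher.

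On the lower side of the matrix list stood several chains of other collagens. Col5a2 stood at 43.9 CPM against 131 CPM (2.98-fold lower), Col6a3 at 100.4 CPM against 217 CPM (2.16-fold lower), and Col3a1 and Col6a1 were 1.98-fold and 1.88-fold lower, with Col3a1 at ratios from 0.288 to 0.628 over the alternatives. Sparc, the collagen-binding glycoprotein with the most UMIs of the list, was 1.67-fold lower (569 against 950 CPM), and Col8a1 1.58-fold lower. Fibronectin (Fn1) stood at a ratio of 0.949. Decorin and Col1a1 were thus higher while Col3a1, Col5a2, Col6a1 and Col6a3 were lower.

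Of 11 proteases and inhibitors past the floor 5 were lower, 1 higher and 5 neither, with a median log2 ratio of -0.53. Timp3, a matrix-bound inhibitor of metalloproteinases, stood at 110 CPM against 411 CPM, 3.75-fold lower (3.33 to 4.24), and was found in 29.7% against 90.6% of cells. In the shallower cells it was 20.9-fold lower. Membrane metalloproteinase Mmp14 was 2.12-fold lower, Adamts1 2.02-fold, the urokinase receptor Plaur 1.88-fold and Timp1 1.69-fold lower. Serpinf1, which encodes the antiangiogenic serpin PEDF, was 2.29-fold higher (279 against 122 CPM), and the cathepsin Ctsl, with the most UMIs of the list, stood at a ratio of 1.05.

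Of 14 adhesion genes past the floor, 3 were lower, 1 was higher and 10 were neither, where 6.46% and 7.2% of all genes were, with a median log2 ratio of -0.23. Itgb1, the beta 1 subunit shared by most matrix-binding integrins, stood at 427 CPM against 807 CPM, 1.89-fold lower (1.77 to 2.02). Ncam1, a neural cell adhesion molecule, was 4.59-fold lower (14.1 against 64.7 CPM) and had 0 against 146 UMIs in the shallower cells. Nectin3 was 1.57-fold lower, and Itga6, a laminin receptor subunit, 1.71-fold higher. Nectin3 came inside 1.5-fold in 4 of 23 alternatives and Itga6 in 1. Itgb7, Nlgn1 and Pcdh7, adhesion genes described above with much higher ratios, were not in this list.

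Guidance molecules past the floor numbered 11, with 3 lower, 1 higher and a median log2 ratio of 0.03. Beside Slit2, the semaphorin co-receptor Nrp1 was 2.95-fold lower (34.9 against 103 CPM; 5.25-fold in the shallower cells) and the ephrin Efna5 1.87-fold lower (230 against 431 CPM). Plxna2, a plexin, lay at the boundary with a ratio of 1.50 (1.33 with Dnajc3 left out of the rule). It came inside 1.5-fold in 14 of 23 alternatives. Sema5a, with the most UMIs, stood at 1.12. Of 11 contractile genes and targets of serum response factor, 3 were lower and 0 higher, with a median log2 ratio of 0.04. They were Ankrd1, a gene induced by YAP (2.63-fold lower, at ratios from 0.337 to 0.587 over the alternatives), Amotl2 (1.77-fold lower, but at a ratio of 0.813 in the shallower cells) and Filip1l (1.69-fold lower).

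For the pathways in which the block genes work, the counts stand against the same 7.2% higher and 6.46% lower of all genes. Of 21 other ER chaperones and unfolded protein response genes, 2 were higher and 0 lower, with a median log2 ratio of 0.26. Uggt1, the paralog of Uggt2, stood at a ratio of 1.18 and the BiP gene Hspa5 at 1.40, and Canx, with the most UMIs, at 0.940. The higher genes were the pseudokinase Trib3, a target of ATF4 (51.6 against 12.7 CPM, 4.07-fold, 2.85 to 5.93) and the ER oxidase Ero1a (1.84-fold). Of 9 glypicans and heparan sulfate genes 1 was higher, the polymerase Ext2 at 1.86-fold (1.34-fold in the shallower cells), and 0 lower, with a median log2 ratio of -0.07 and Ext1 at a ratio of 0.953. The 2 other C-family ABC transporters past the floor, Abcc1 and Abcc5, stood at 0.823 and 0.961 (median log2 ratio -0.17), and of 5 hedgehog pathway genes only the transducer Smo was past the fold, 2.30-fold higher (59.0 against 25.7 CPM), with Gli3 at 0.863 and a median log2 ratio of -0.03.

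Of 16 genes of serine synthesis, one-carbon metabolism and amino acid uptake, 4 were higher, 0 lower and 12 neither, against 7.2% higher among all genes, with a median log2 ratio of 0.27 and a summed ratio of 1.31 (1.27 to 1.36). The 4 were asparagine synthetase Asns (1.78-fold, 224 against 126 CPM), the serine synthesis enzymes Psat1 (1.62-fold, 328 against 202 CPM) and Psph (1.59-fold), and the glutamine transporter Slc1a5 (1.58-fold). Phgdh, the first enzyme of serine synthesis, stood at 1.02. Of 13 glycolysis genes 0 were higher and 1 lower, hexokinase Hk1 (1.80-fold lower), with Pkm at 0.927 and a median log2 ratio of -0.10. Cholesterol synthesis, 20 genes, had 0 higher and 1 lower, squalene synthase Fdft1 (1.98-fold lower; it lies on chromosome 14), with Cyp51 at 0.766 and a median log2 ratio of -0.14.

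Mitochondrially encoded and nuclear respiratory genes parted. Of the 13 mitochondrial messages 4 were higher and 0 lower, with a median log2 ratio of 0.51 and a summed level of 30376 against 22101 CPM, 1.37-fold (1.36 to 1.39). They were mt-Nd3 (2.13-fold), mt-Nd5 (1.96-fold), mt-Nd4 (1.56-fold) and mt-Nd1 (1.51-fold), all subunits of complex I (mt-Nd1 came inside 1.5-fold in 9 of 23 alternatives and mt-Nd4 in 1), while mt-Atp6, with the most UMIs, stood at 1.39 and mt-Atp8 at 0.866. Of the 24 nuclear genes of oxidative phosphorylation 0 were past the fold either way, from 0.738 (Atp5pb) to 1.40 (Ndufa1), with a median log2 ratio of -0.02. The mitochondrial percent is also a common sign of cell quality, and its part in these differences was not tested.

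For the proliferation lists the background was again 7.2% higher and 6.46% lower. Of 26 S phase genes 2 were lower, Ccne2 (1.77-fold) and Mcm5 (1.52-fold), and 0 higher, with a summed ratio of 0.946 and a median log2 ratio of -0.05. Mcm5 came inside 1.5-fold in 10 of 23 alternatives, with a ratio of 0.785 in the shallower cells, and Ccne2 in 1. Of 28 G2 and mitosis genes 1 was higher, the cyclin Ccnb2 (1.69-fold), and 0 lower, with a summed ratio of 1.04 and a median log2 ratio of 0.06, and the proliferation markers Top2a and Mki67 stood at 1.28 and 0.859. Of 12 CDK inhibitors and p53 targets, Zmat3 (1.79-fold) and Phlda3 (1.69-fold) were higher and Sesn1 (1.60-fold) lower, with a median log2 ratio of 0.04. Sesn1 came inside 1.5-fold in 3 of 23 alternatives, and Cdkn1a stood at 1.12.

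Innate and early response genes were few. Of 6 interferon-related genes past the floor 3 were higher and 1 lower, with a median log2 ratio of 0.40. Ifitm3, a membrane protein that restricts virus entry, stood at 265 CPM against 70.6 CPM, 3.76-fold higher (3.23 to 4.38), and the transcription factor Irf1 was 1.94-fold higher, while Ifit2 was 2.64-fold lower. Of 9 immediate early genes 0 were higher and 2 lower, the MAP kinase phosphatases Dusp1 (2.81-fold, and 4.32-fold in the shallower cells) and Dusp6 (1.55-fold, inside 1.5-fold in 7 of 23 alternatives), with Jun at 1.01 and a median log2 ratio of -0.16. Of 14 genes of adipocyte and mesenchymal fate, Cebpb (2.71-fold), an early regulator of fat cell differentiation, and Runx1 (1.62-fold) were higher and 0 lower, with a median log2 ratio of 0.01 and Prrx1 at 1.28.

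**Figure D5:**
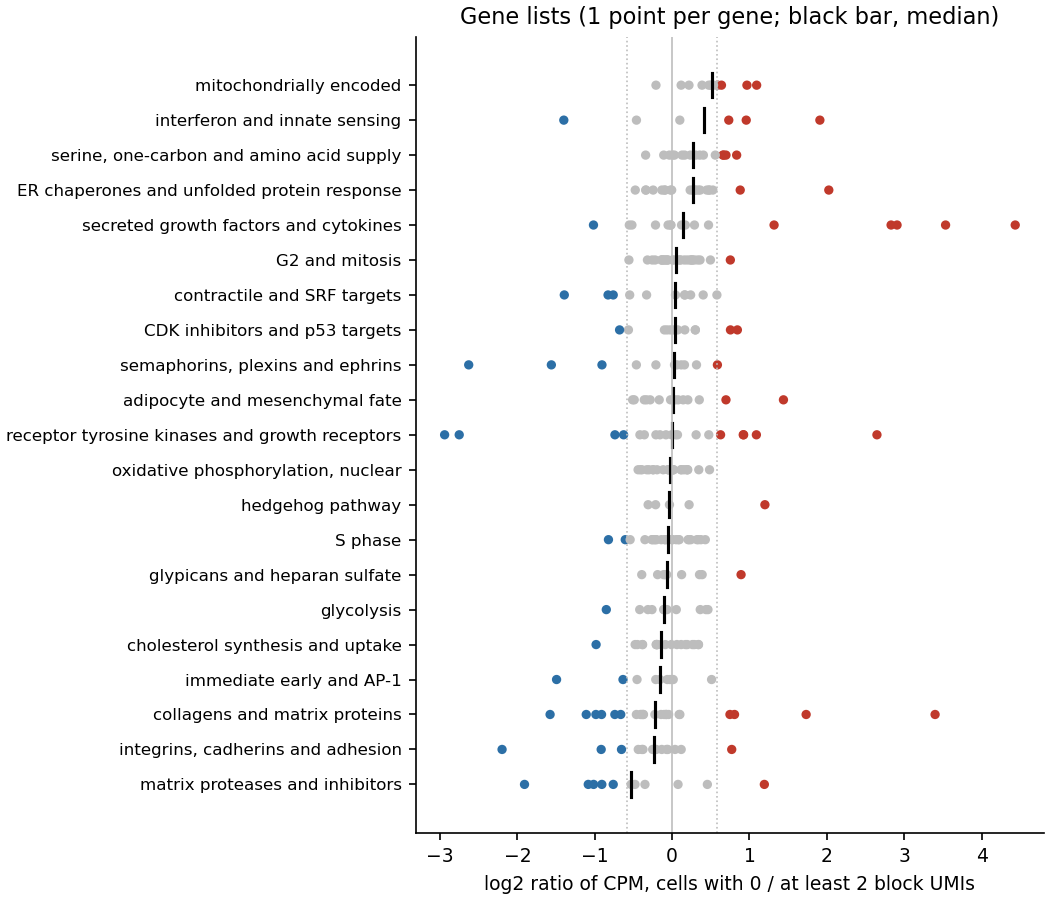
Log2 ratio of CPM in cells with 0 over cells with at least 2 block UMIs (x axis) for each gene past 30 CPM, 1 row per gene list, with black bars at the medians and dotted lines at 1.5-fold. Mitochondrially encoded genes have a median of 0.51, proteases and inhibitors one of -0.53, and oxidative phosphorylation has no gene past either line.

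Whole chromosomes leaned one way or the other, where over all genes tested 7.2% were higher and 6.46% lower by 1.5-fold. On chromosome 1, 75 of 379 genes were at least 1.5-fold higher (19.8%) and 12 lower, with a summed ratio of 1.19. On chromosome 2, 71 of 476 were higher (14.9%) and 11 lower, with a ratio of 1.14. In the other direction, chromosome 10 had 13 of 365 higher and 59 lower (16.2%), with a ratio of 0.839. Chromosome 8 had 8 of 305 higher and 36 lower (11.8%), with a ratio of 0.846. Chromosome 17 had 14 of 293 higher and 47 lower (16.0%), with a ratio of 0.878. Chromosomes 6 and 7, at 1.00 and 0.987, stood near the comparison level.

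Within chromosomes the differences came in stretches. Over 5948 runs of 20 consecutive genes past the floor, the median log2 ratio of a run had its 1st percentile at -0.47 and its 99th at 0.53. The counts of genes in a run stand against 7.2% higher and 6.46% lower over all genes tested. The lowest run was the one that spans the block, chr14:86892790-124215765 (Diaph3 to Itgbl1), at -0.64 with 11 genes lower and 1 higher. The 7 block genes were not counted in this run. It was followed by chr17:15925164-24048148 (Chd1 to Elob), at -0.60 with 11 lower and 0 higher. The highest runs were chr1:183103389-191355803 (Mia3 to Ints7), at 0.68 with 13 higher, and chr2:166647368-173549136 (Arfgef2 to Rab22a), at 0.68 with 11 higher, both with 0 lower. Ratios thus differed by position on several chromosomes, and DNA copy number was not measured.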

How the data were processed

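CapSeq RNA-seq was performed on N2a, NIH/3T3 and mESC cells, which shared 1 pooled library and were split by BC1, and a pooled output of the same reads was also deposited. The authors split reads by BC1, trimmed them and counted UMIs with STARsolo on GRCm39, and the strand setting is not given in the sources used here. The deposited matrices hold raw UMI counts per gene and barcode (33565 genes, 884736 barcodes) with no cell filter, which was set here at 6000 UMIs and 20% mitochondrial UMIs and removed 0 further cells. Doublets were not called. Gene positions come from GENCODE M39, which held 32953 of the identifiers.

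UMIs were summed over cells of a group and divided by their total (CPM). Genes with a mean of at least 30 CPM in the 2 groups were compared by the ratio of CPM with an exact conditional 95% interval, and called past 1.5-fold. Log2 ratios used a pseudocount of 1 CPM. Depth per matrix ranged from 13505027 to 49185518 UMIs. The 25 gene lists, the 7 block genes and the cell rule were chosen with earlier results of these data known. Genes were named as the 12 highest and 12 lowest ratios, the gene with the most UMIs and the one farthest from 1 in each list, and the genes of the block and its flanks, and other names were chosen after their values were seen. Some genes that these rules name or count are not reported here. Of the interferon list 22 of 24 symbols were found. The script was tested on simulated data. Alternatives covered depth, the mitochondrial limit, the rule, weighting, thinning, floor, fold, pseudocount, totals and the pooled matrix. Scripts ran in Python 3.11.15 with scipy 1.17.1 and numpy 2.4.6 for statistics, pandas 2.3.3 for tables and matplotlib 3.10.9 for plots.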

Additional observations from a re-analysis of the deposited data

How the results depend on the processing

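Both groups are cells of 1 library and the labels give no replicate numbers, so no analysis paired by replicate was made. BC1 wells held cells of both groups, but no contrast within wells was made. Comparison cells were instead weighted to the BC1 wells of the cells without block UMIs, where 1 named call was lost, Mcm5 at a ratio of 0.668. Results were recomputed under 25 listed alternatives and 1, the shallower cells, chosen after seeing the data. No called result reversed, and 1361 of 1517 gene values and 525 of 575 list values stayed within their counting interval. The number of selected cells was 551 at 4000 UMIs or more, 177 at 8000, 107 at 10000 and 402 without Dnajc3 in the rule, and their percent of cells was 47.1 without Gpc6 and 52.3 without Dnajc3. Higher and lower genes numbered 979 and 729 of 9097 at a floor of 10 CPM, 119 and 132 of 2581 at 100 CPM, 154 and 115 at a fold of 2, and 779 and 679 in the shallower cells. The level after the block, 51.1% of comparison cells, was 55.0% at 4000 UMIs, 47.0% at 8000, 46.7% at 10000, 56.1% without Gpc6, 55.6% without Dnajc3 and 39.4% in the shallower cells. The causes were not tested. Of 91 named or listed genes past 1.5-fold, 70 stayed past it in every alternative run on them and 21 came inside it in at least 1, among them Plxna2, mt-Nd1, Ddr2, Mcm5, Dusp6, Nectin3 and Bmpr1a, and 0 took the opposite direction. The median log2 ratio of all genes moved by less than 0.1 in every alternative. Limits are 1 library, a rule on sparse counts that also takes in cells with the comparison pattern, and no measure of DNA.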

Other observations

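Further genes outside the lists differed widely, and those named here were chosen after their values were seen. On the higher side, Hspa12a, a distant member of the HSP70 family, stood at 404 CPM in cells without block UMIs against 29.3 CPM in comparison cells. Gsta4, a glutathione transferase that detoxifies lipid aldehydes, stood at 577 CPM against 104 CPM. Igfbp4, a secreted binding protein of insulin-like growth factors, stood at 139 CPM against 6.50 CPM, and Casp4, the inflammatory caspase that senses cytosolic lipopolysaccharide, at 78.9 CPM against 12.0 CPM. Irs1, a docking protein of the insulin receptor, stood at 73.7 CPM against 16.6 CPM.

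On the lower side stood transcription regulators that no list held. Mef2c, a MADS box factor of muscle and mesenchyme, stood at 47.8 CPM against 195 CPM, and the nuclear receptor Rora at 30.5 CPM against 147 CPM. Macroh2a2, a histone variant, stood at 15.4 CPM against 66.3 CPM. Fstl3, a secreted inhibitor of activins, stood at 10.6 CPM against 52.7 CPM, and the membrane peptidase Mme at 13.5 CPM against 52.0 CPM. With 1 library, none of these differences has a replicate.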
